A study of Mus musculus with 74 samples.

Results

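The thrombospondin family comprises 5 genes in mouse, Thbs1, Thbs2, Thbs3, Thbs4 and Comp, and its rows were taken by gene symbol from every deposited table of mean expression in PT (primary mammary tumor) and Lung met (lung metastasis). All 5 genes had a row in the Her2, C3Tag and BALB PyMT-F1 tables, which hold 18208, 19321 and 17363 genes. In the SEAGN PyMT-F1 table (17404 genes) 3 members had a row, and in the table deposited under AKR (17945 genes) 4 did. The family was chosen by measured values of these same tables, because the Lung met mean of Thbs2 had been seen to lie under its PT mean. The ratios below are therefore a description of the family and carry no test.

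The study profiled RNA of bulk tissue from female mice with mammary tumors, 74 samples in all. Her2 mice carry MMTV-neu (labelled MMTV-Her2), an oncogene under the promoter of the mouse mammary tumor virus, and C3Tag mice carry a viral T antigen under the C3(1) promoter, both on the FVB background. PyMT-F1 mice are the daughters of MMTV-PyMT males on FVB and wild-type females of another strain, so that every PyMT-F1 mouse has an FVB parent. Labels name BALB/NJ, SEA/GNJ and AKR/J as that strain, where the study's methods name BALB/cJ, Sea/GnJ and AKR/J. Each model had 6 PT and 6 Lung met samples, apart from 7 of each in C3Tag, and every group mixes tumor cells with host stroma. In the driver models, animals with a single lesion had it removed by surgery and were then aged, so that PT and Lung met of such an animal were not taken on one day. The PT tissue of a mouse was pooled from all its tumors. Ages are not given in the sources used here.

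Only group means were usable. Each value below is the authors' least-squares mean of normalized counts over one tissue of one model, with no value of a single sample, no depth and no spread between samples. Whether a difference is larger than the replicate spread could not be examined, and words such as lower and higher compare 2 means. Myc, the remaining driver model, gave no mean in the table analysed here, so no member value is given for it. The PyMT-F1 table deposited under AKR is called AKR-named below, because the fold changes that the study's supplementary lists give for C57BL/6J coincide with it and its strain could not be settled. For 23 of the 36 PyMT-F1 samples the title and the genotype label name different strains, so which animals entered each PyMT-F1 mean is not known.

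Thrombospondins are secreted, calcium-binding glycoproteins of the extracellular matrix that act more on cells than as scaffold. Thbs1 and Thbs2 assemble as trimers and carry the type 1 repeats that bind CD36 and inhibit angiogenesis, and Thbs1 can also activate latent TGF-beta. Thbs3, Thbs4 and Comp assemble as pentamers without those repeats, and are best known from cartilage, tendon, muscle and bone. In tumors, fibroblasts, endothelium and platelets are familiar sources of Thbs1, and fibroblasts of Thbs2.

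Thbs2 and Thbs4 were the members that stood lower in Lung met, Thbs1 stayed near its PT level, and Thbs3 and Comp differed from table to table. In counts, a mean at least 2-fold apart between both tissues, with the average of both at least 10, was taken as past the fold. By that count 2 members were lower and 0 higher in Her2 (1.42% of all 17100 genes were lower and 2.25% higher), and 2 were lower and 1 higher in C3Tag (1.61% of 18331 lower, 7.52% higher). In BALB PyMT-F1 2 were lower and 0 higher (2.14% of 15397 lower, 2.07% higher), and in SEAGN PyMT-F1 1 of 3 was lower and 0 higher (2.9% of 15401 lower, 2.65% higher). Under the AKR name 2 of 4 were lower and 1 higher (1.63% of 16791 lower, 7.16% higher). The lower members were Thbs2 and Thbs4 wherever both had a row, and the single higher member in C3Tag and in the AKR-named table was Thbs3. Of the 22 member rows, 21 passed the minimum average, and the exception was Comp in BALB PyMT-F1.

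**Figure D1:**
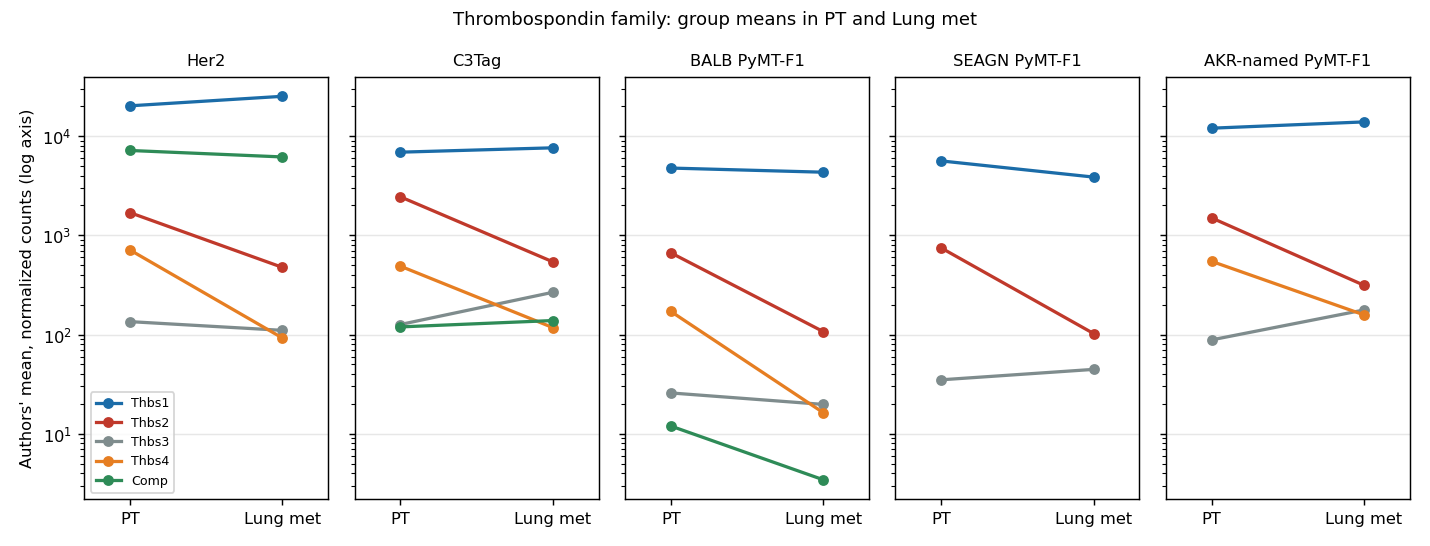
Authors' mean normalized counts in PT and Lung met for each family member, 1 panel per table, on a log axis. Each point is 1 group mean without an error, since sample values were not analysed here. Lines of Thbs2 and Thbs4 slope down in every panel that shows them, while the line of Thbs1 stays nearly flat at the top.

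Thbs2, the trimeric inhibitor of angiogenesis on chromosome 17 (GRCm38 chr17:14665500-14694235, minus strand), was lower in Lung met in all 5 tables. Her2 tumors had a mean of 1692 normalized counts in PT against 475.0 in Lung met, and C3Tag tumors 2443 against 540.3. In BALB PyMT-F1 the means were 666.1 and 107.0, in SEAGN PyMT-F1 745.6 and 102.2, and under the AKR name 1497 and 313.3. As a log2 ratio of Lung met over PT these were -1.83, -2.18, -2.64, -2.87 and -2.26, or between 3.56-fold and 7.29-fold lower. In each table between 0.137% and 0.409% of the genes past the minimum average had a lower ratio than Thbs2. Its PT mean exceeded that of 75.8% to 88.5% of genes and its Lung met mean that of 41.9% to 56.4%, so the transcript remained at a middle level in the metastases. The smallest difference was in Her2 and the largest in SEAGN PyMT-F1, 2 values 1.03 apart on the log2 scale.

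Thbs4, a pentameric member known from tendon, muscle and heart (chr13:92751590-92794818, minus strand), was lower in Lung met in all 4 tables that hold it. Its means were 711.1 in PT and 92.29 in Lung met in Her2, and 488.5 and 117.4 in C3Tag. In BALB PyMT-F1 they were 171.0 and 16.32, and under the AKR name 546.0 and 157.7. The log2 ratios were -2.95, -2.06, -3.39 and -1.79, between 3.46-fold and 10.5-fold lower. The BALB PyMT-F1 value rests on a low Lung met mean and was -2.78 with 10 added to both means, against -2.82 in Her2. Thbs4 in SEAGN PyMT-F1 was not analysed here. As deposited, Thbs4 had the lower ratio of the pair in Her2 and BALB PyMT-F1, and Thbs2 in C3Tag and the AKR-named table, so neither gene stood lower throughout.

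The region upstream of both genes is shown because they are the members that were lower together, and that of Thbs3 because it was not lower with them. RefSeq windows on GRCm38.p6, from 250 bases before to 50 bases after the start, were found for 3 of the 5 members. Thbs2 lies at chr17:14694213-14694512 (minus strand), Thbs4 at chr13:92794769-92795068 (minus strand) and Thbs3 at chr3:89214930-89215229 (plus strand). Capitals mark matches on either strand to 6 short motifs, which may overlap. The searched letters were TATAAA for the TATA box, then CCAAT for the box of that name, while GGGCGG stood for the GC box. An E-box was written as CANNTG with any base at N, the AP-1 site likewise as TGANTCA, and the SMAD-binding element as CAGACA.
Thbs2: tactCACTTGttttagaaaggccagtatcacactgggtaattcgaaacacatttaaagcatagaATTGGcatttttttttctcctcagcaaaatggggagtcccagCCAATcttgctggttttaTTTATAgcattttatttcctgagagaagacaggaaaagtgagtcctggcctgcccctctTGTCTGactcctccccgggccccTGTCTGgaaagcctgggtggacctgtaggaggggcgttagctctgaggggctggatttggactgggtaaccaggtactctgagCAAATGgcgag
Thbs4: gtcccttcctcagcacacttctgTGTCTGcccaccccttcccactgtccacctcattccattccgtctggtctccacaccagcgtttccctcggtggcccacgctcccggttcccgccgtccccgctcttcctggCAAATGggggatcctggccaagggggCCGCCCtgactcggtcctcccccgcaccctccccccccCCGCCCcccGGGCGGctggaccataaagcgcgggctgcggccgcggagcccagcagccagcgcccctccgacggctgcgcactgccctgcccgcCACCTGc
Thbs3: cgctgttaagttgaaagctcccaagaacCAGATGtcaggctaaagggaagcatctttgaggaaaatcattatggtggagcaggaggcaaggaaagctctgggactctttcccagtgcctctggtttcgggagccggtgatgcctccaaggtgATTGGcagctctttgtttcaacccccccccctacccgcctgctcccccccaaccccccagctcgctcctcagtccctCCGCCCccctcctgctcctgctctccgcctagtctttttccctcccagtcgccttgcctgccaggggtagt

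The windows of Thbs2 and Thbs4 differed in base composition and in the TATA, CCAAT and GC boxes, but not in which of the other motifs they held. That of Thbs2 was 48.3% G or C and held 1 TATA box, 2 CCAAT boxes and no GC box. The letters of its TATA box lay at -126 from the start. The Thbs4 window was 72.0% G or C and held 3 GC boxes and neither of the others. Of 32851 promoter windows of the same length, 13.6% held the TATA box, 37.4% the CCAAT box and 35.7% the GC box. Both windows held the SMAD-binding element, with 2 matches in Thbs2 and 1 in Thbs4, and 21.0% of all windows did. Both also held 2 E-boxes, which 72.3% of all windows did, and neither held the AP-1 site, found in 7.81%. The Thbs3 window (59.0% G or C) held 1 CCAAT box, 1 GC box and 1 E-box. A match is only a run of letters, and its absence says nothing of a factor.

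Thbs1, the trimer that binds CD36 and CD47 and activates TGF-beta (chr2:118111876-118127133, plus strand), stood in PT above 97.9% to 99.6% of genes and lay within 1.5-fold of that level in Lung met. Its means were 20177 in PT and 25166 in Lung met for Her2, 6882 and 7613 for C3Tag, and 12006 and 13891 under the AKR name. In BALB PyMT-F1 they were 4760 and 4324, and in SEAGN PyMT-F1 5618 and 3860. The log2 ratio was on the higher side in 3 tables (0.32 in Her2, 0.15 in C3Tag and 0.21 in the AKR-named table) and on the lower side in 2 (-0.14 in BALB PyMT-F1 and -0.54 in SEAGN PyMT-F1). These signs held under every scaling tried, but the size in C3Tag did not, at 0.95 with both columns rescaled to the same sum. As deposited, the values lay inside the middle 90% of all genes in each table. An antisense transcript, Gm29233, overlaps its exons, and it had a row only in Her2, at 6.32 in PT and 9.21 in Lung met.

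Where Thbs4 was analysed, Thbs2 therefore did not stand alone. In SEAGN PyMT-F1, where Thbs4 was not analysed, Thbs2 was the only member past 2-fold lower. Its nearest paralog by structure, Thbs1, did not accompany it past 2-fold in any table. Set against Thbs1 in the same table, the log2 ratio of Thbs2 was lower by 2.15 in Her2, 2.32 in C3Tag, 2.50 in BALB PyMT-F1, 2.33 in SEAGN PyMT-F1 and 2.47 in the AKR-named table. This difference within a table does not depend on how both columns were scaled, and its 5 values spanned less than the ratios of Thbs2 themselves. Against the median of all paralogs with a row it was -1.58, -2.36, -1.55, -2.77 and -2.47 in the same order, and in BALB PyMT-F1 -2.25 without Comp, which failed the minimum there.

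**Figure D2:**
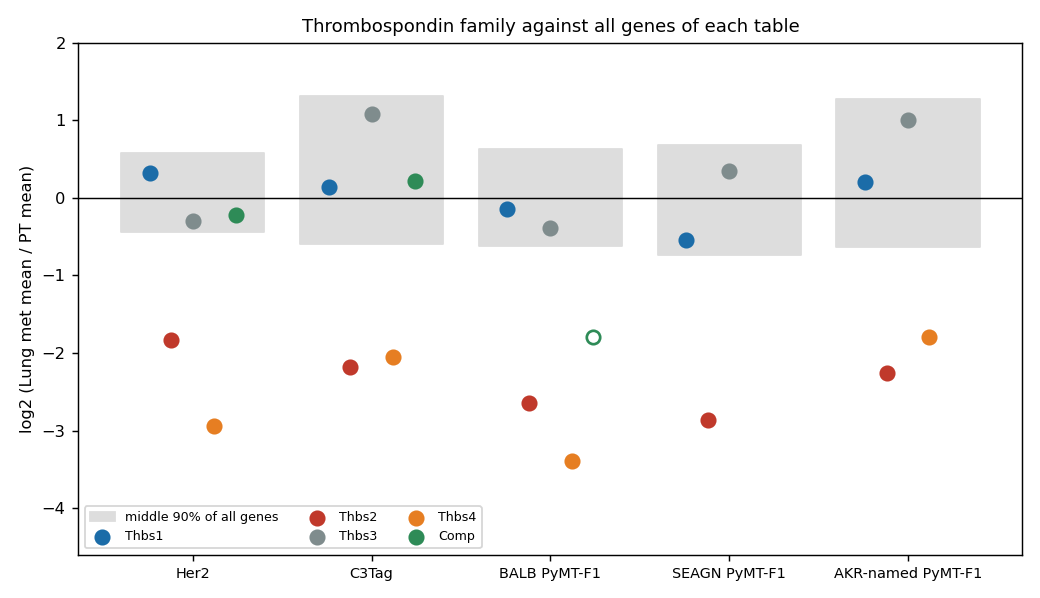
Log2 ratio of the Lung met mean over the PT mean for each family member in the 5 tables, with the gray band covering the middle 90% of all genes past the minimum average. The open circle is Comp in BALB PyMT-F1, whose means average under 10. Thbs2 and Thbs4 lie below the band in each table that holds them, and Thbs1 and Thbs3 lie inside it.

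Thbs3, a pentameric member on chromosome 3 (chr3:89215180-89226837, plus strand), was the only one past 2-fold higher in the means as deposited. Its means were 126.1 in PT and 266.2 in Lung met in C3Tag (2.11-fold, log2 ratio 1.08) and 88.26 and 176.8 in the AKR-named table (2.00-fold, 1.00). They were 134.8 and 110.1 in Her2 (-0.29), 25.77 and 19.74 in BALB PyMT-F1 (-0.38) and 34.94 and 44.51 in SEAGN PyMT-F1 (0.35). Both tables where it passed are those in which over 7% of all genes were past 2-fold higher, and both values sat near the limit. The AKR-named value was under it with each other scaling, and the C3Tag value was 0.997 when sums without the 100 highest genes were made equal. Exons of Thbs3 overlap those of Mtx1 on the other strand. Mtx1 had log2 ratios from -0.08 to 0.24, and the libraries were stranded but no source used here says whether counting used strand, so reads of the shared stretch may have gone to either gene.

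Comp, cartilage oligomeric matrix protein (chr8:70373558-70382066, plus strand), differed more between models than between tissues. Its mean was 7159 in PT and 6161 in Lung met in Her2, where its PT level exceeded that of 96.9% of genes. In C3Tag the means were 119.3 and 138.2, above 34.1% of genes in PT, and in BALB PyMT-F1 11.95 and 3.44, above 13.1%. The log2 ratios were -0.22, 0.21 and -1.80, and the last comes from means that average 7.70 and was -0.71 with 10 added to both. Tables were normalized separately, so only the rank within a table can be set side by side. Comp was not analysed here in SEAGN PyMT-F1 and the AKR-named table.

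Divided by exon length, so that genes can be compared, Thbs1 made up most of the family in each table. It took 53.4% (Her2) to 89.1% (SEAGN PyMT-F1) of the summed family mean per kb in PT and 65.4% to 96.5% in Lung met. Per kb, the Thbs1 mean was 3.25 (C3Tag) to 13.8 times (Her2) that of Thbs2 in PT and 16.2 to 61.1 times in Lung met. Thbs2 itself took 20.6% of the family in C3Tag PT and 5.26% in C3Tag Lung met, and in Her2 3.88% and 1.07%. Comp took 38.8% in Her2 PT against 2.37% in C3Tag PT and 0.429% in BALB PyMT-F1 PT. Shares in tables without Comp or Thbs4 rows leave those genes out.

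Genes with the pattern most like Thbs2 were found by Euclidean distance between log2 ratios over the 5 tables, among 11796 genes past the minimum in all of them. They were Thy1 (distance 1.04), a surface glycoprotein, Col12a1 (1.05), a collagen bound to fibrils, Cthrc1 (1.44), a secreted collagen-repeat protein, Islr (1.58) and Cpxm1 (1.61). Thy1 is also among the fibroblast markers listed below, and Col12a1 among the matrix partners. Col12a1 had log2 ratios of -1.75 in Her2, -2.51 in C3Tag, -2.50 in BALB PyMT-F1, -3.29 in SEAGN PyMT-F1 and -1.36 in the AKR-named table, which runs beside Thbs2 except in the last. Thbs1 came at rank 4196 and Thbs3 at rank 10744 in likeness to Thbs2. Over the 4 tables that hold Thbs4, a choice made after the values were seen, Thbs4 was rank 5 to Thbs2 (distance 1.43) and Thbs2 rank 4 to Thbs4 among 11902 genes. The genes most like Thbs1, all with small ratios, were Gm26789 (0.21), Cblb (0.23), Igf1r (0.24), Plekhg2 (0.28) and Fmnl3 (0.28).

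Among receptors of the family, those past 2-fold in any table were all higher in Lung met, and Cd36 was so in 4 of 5 tables. Of the 15 receptors and surface partners listed, all passed the minimum in each table, 0 were past 2-fold lower in any and 1 to 3 were past 2-fold higher, with list medians from 0.07 to 0.33 (all genes -0.002 to 0.034). Across the tables, 1.42% to 2.9% of all genes were past 2-fold lower and 2.07% to 7.52% higher. Cd36, the receptor through which type 1 repeats inhibit endothelium and also a fatty acid transporter, had the highest median of the list. The others past 2-fold, named after their values were seen, were the integrin subunit Itga2 in Her2 (1.13), C3Tag (2.87) and SEAGN PyMT-F1 (1.01), the subunit Itga4 in C3Tag (1.78) and the AKR-named table (1.09), and Cacna2d1, a calcium channel subunit, in the AKR-named table (1.27). The Cd36 mean was 161.7 in PT and 7164 in Lung met in C3Tag, 41.28 and 444.3 in BALB PyMT-F1, 56.95 and 491.2 in SEAGN PyMT-F1, and 552.9 and 3883 in the AKR-named table. These were log2 ratios of 5.47, 3.43, 3.11 and 2.81, while in Her2 the means were 23958 and 27951 (0.22), already high in PT. Cd47, the receptor for the thrombospondin C-terminal domain, ranged from -0.17 to 0.69, and Notch3, which Thbs2 can bind, from -0.49 to 0.05.

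Genes of latent TGF-beta and its response had a list median above 0 in each table, though single genes went both ways. The list medians ran from 0.05 to 0.48 (all genes -0.002 to 0.034). Of 12 listed, 0 were past 2-fold lower in any table and 0 to 2 higher. Tgfb1, the ligand that Thbs1 can release from its latent form, ranged from -0.44 to 0.35. Ltbp3, a latent TGF-beta binding protein, ranged from -0.63 to 0.16 and was on the lower side in 4 tables. Tgfb2, Tgfbi and Tgfbr2, named after their values were seen, were on the higher side in all 5. Of the VEGF genes and receptors, 0 were past 2-fold lower and 0 to 4 of 5 or 6 higher. Flt1 ranged from 0.27 to 1.45 and Fgf2 from -0.14 to 1.29. In this list and the TGF-beta list, genes past 2-fold higher occurred only in C3Tag and the AKR-named table. There 7.52% and 7.16% of all genes were past 2-fold higher. Across the tables, 1.42% to 2.9% of all genes were past 2-fold lower.

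Among proteases that cut or are bound by thrombospondins, the gelatinases Mmp2 and Mmp9 differed in sign outside Her2. In Her2 both were past 2-fold lower. Mmp2, cleared by cells in complex with Thbs2, was past 2-fold lower in 4 of 5 tables, with log2 ratios of -1.67 in Her2, -0.28 in C3Tag, -2.13 in BALB PyMT-F1, -1.85 in SEAGN PyMT-F1 and -1.13 in the AKR-named table. Mmp9 was -1.38 in Her2 and 2.09, 0.68, 1.41 and 2.92 in the others. Some of these rest on low means, such as 32.63 in PT and 12.56 in Lung met in Her2, and 16.98 and 27.28 in BALB PyMT-F1. Of the 7 listed genes with a row, 0 to 4 were past 2-fold lower and 0 to 2 higher, beside 1.42% to 2.9% and 2.07% to 7.52% of all genes.

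Matrix partners of the family had medians under 0 beside Thbs2 in 4 tables, but not in C3Tag. Of 12 with a row, 7 were past 2-fold lower in Her2, 1 in C3Tag, 5 in BALB PyMT-F1 and 6 each in SEAGN PyMT-F1 and the AKR-named table, while 2, 3, 0, 1 and 2 were past 2-fold higher in the same order. The list medians were -1.12, 0.20, -0.68, -1.497 and -0.92. For this list and those below, the shares of all genes were 1.42% to 2.9% past 2-fold lower and 2.07% to 7.52% higher. Col12a1 was past 2-fold lower in all 5 tables. Matn4, a cartilage and matrix adaptor protein, was on the higher side in all 5, from 0.42 to 2.98, and past 2-fold in 4. Fn1, fibronectin, named after its values were seen, was on the higher side in all 5 (0.36 to 1.58) and past 2-fold in 3. Among other matricellular proteins, 2 to 6 were past 2-fold lower and 1 to 3 higher, with Spock2, a proteoglycan of that group, higher in all 5 tables (1.96 to 4.65) and Tnxb, a tenascin, from -2.64 to 0.36. Among other genes with type 1 repeats, 0 to 3 were past 2-fold lower and 0 to 6 higher, with Adamts9 from 0.79 to 1.33 and Spon1 from -1.41 to -0.21.

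**Figure D3:**
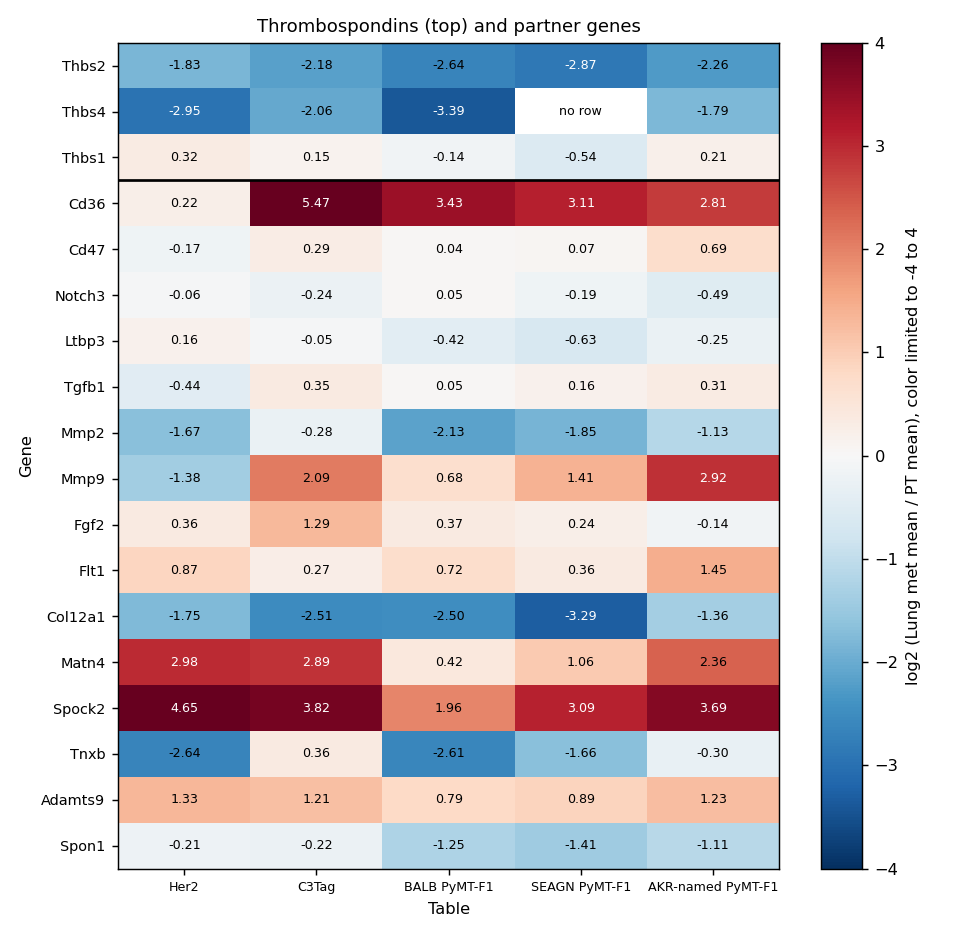
Log2 ratio of the Lung met mean over the PT mean for Thbs2, Thbs4 and Thbs1 (above the line) and for partner genes named by rule, in the 5 tables. Blue is lower and red higher in Lung met, and the number in each cell is the ratio. Col12a1 is blue in all 5 tables and Cd36 and Spock2 are red in all 5, with Cd36 pale in Her2.

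Some cell type marker lists also differed between the tissues, and their part in the result was not tested. Of the fibroblast markers, 8 of 9 were past 2-fold lower in Her2, 3 of 10 in C3Tag, 9 of 10 in BALB PyMT-F1, 8 of 9 in SEAGN PyMT-F1 and 4 of 10 in the AKR-named table, with medians of -1.75, -0.66, -1.86, -1.85 and -0.84. Lum and Thy1 were past 2-fold lower in all 5, whereas Pdgfra, another defining fibroblast gene, was on the higher side in all 5 (0.44 to 0.94). The ratio of Thbs2 was under the fibroblast median in each table, by the least in Her2 (-1.83 against -1.75). C3Tag and the AKR-named table had the smallest fibroblast shifts, while Thbs2 stood at -2.18 and -2.26 there. Outside C3Tag, single markers went lower than Thbs2. Lum was at -4.17 in Her2, -4.69 in BALB PyMT-F1, -5.39 in SEAGN PyMT-F1 and -4.04 in the AKR-named table. In bulk tissue, fewer cells of a type and less RNA per cell cannot be told apart. The summed level of the fibroblast markers was 6068 in PT and 2427 in Lung met in Her2, and 9691 and 9504 in C3Tag. Without Pdgfra, left out because it went the other way, it was 5431 and 1513 in Her2, and 7301 and 5340 in C3Tag. That remaining sum was lower in both models, which leaving out a higher gene favours by construction. Not every marker in it was lower. In C3Tag, Dpt was past 2-fold higher, at 105.3 in PT and 256.3 in Lung met (log2 ratio 1.28).

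Skeletal muscle markers, which matter for Thbs4, were far lower in Lung met in 4 tables, with few genes measured. Acta1, skeletal muscle actin, had means of 149.3 in PT and 4.69 in Lung met in Her2, 824.1 and 32.6 in C3Tag, 379.7 and 6.58 in BALB PyMT-F1, and 72.8 and 7.67 in SEAGN PyMT-F1. In the AKR-named table it was 7.60 and 25.1, on the higher side but low in both tissues, with 2 muscle markers past the minimum, and Thbs4 was 3.46-fold lower in that table. The part of muscle in the ratios of Thbs4 was not tested. Of the 8 markers, 1 to 4 had a row, and Myh1, Myh4, Actn3 and Tnnc2 had none in any table.

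Lung and vessel markers were on the other side. Of 7 alveolar markers with a row, 6 or 7 were past 2-fold higher in each table, with medians of 3.73 to 5.12, and Ager stood at 62.5 in PT and 1847 in Lung met in Her2 and at 214.1 and 9532 in the AKR-named table. Sftpa1, Sftpb and Sftpc had no row in any table, and the summed level of the 6 markers other than Aqp5, which is not specific to lung, was 1477 in PT and 7079 in Lung met in Her2 (57616 and 52674 for Aqp5). Endothelial markers (endothelium is a known source of Thbs1 and Cd36) were past 2-fold higher for 3, 9, 2, 2 and 9 of 10 genes in the order Her2, C3Tag, BALB PyMT-F1, SEAGN PyMT-F1 and AKR-named, with medians of 0.66, 1.44, 0.57, 0.64 and 1.83. Platelet markers had medians of -0.19, 1.76, -0.26, -0.26 and 0.85 over 2 to 6 genes. The 2 tables with the highest endothelial medians are those where Thbs3 was past 2-fold higher, and the part of these markers in the ratios of Thbs1 and Thbs3 was not tested. The remaining marker lists had medians of both signs. These ran from -0.09 to 0.61 for smooth muscle, -0.22 to 0.30 for mammary epithelium and -0.03 to 0.53 for adipocytes. For cartilage and tendon they ran from -0.63 to 0.10, and for macrophages from -0.32 to 0.29.

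**Figure D4:**
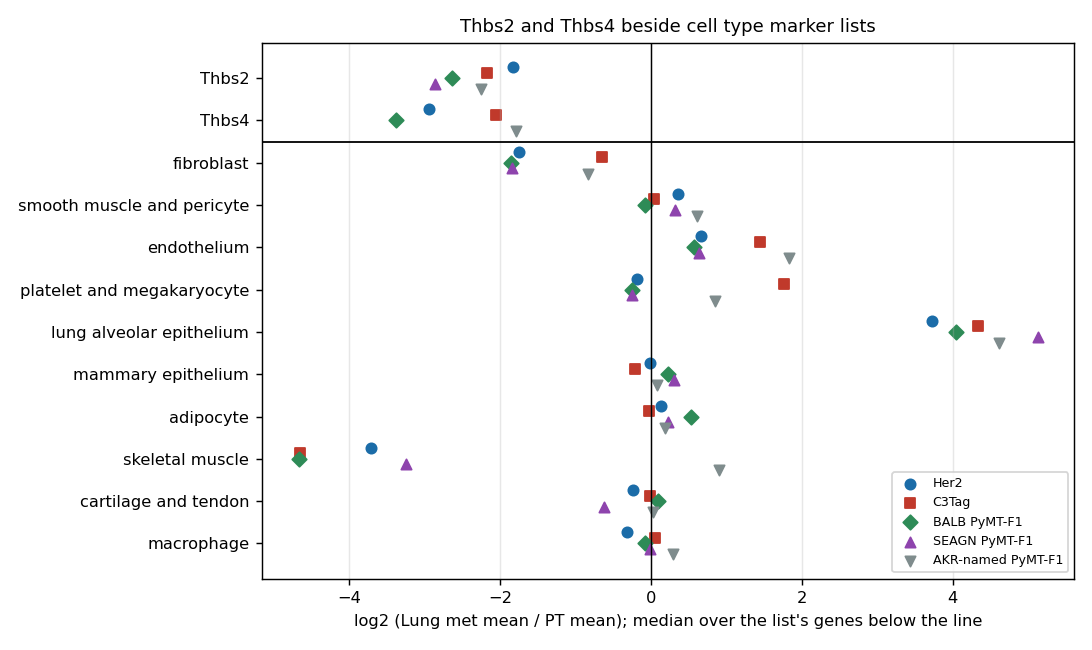
Log2 ratios of Thbs2 and Thbs4 (above the line) beside the median log2 ratio of each cell type marker list, 1 symbol per table. Fibroblast medians lie below 0 in all 5 tables and alveolar medians above 3. Skeletal muscle, measured by few genes, is below -3 in 4 tables and at 0.89 in the AKR-named table.

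One feature of the C3Tag table touches these values. A single small nuclear RNA gene, Gm22614, made up 38.3% of the sum of PT means, and the PT column summed to 1.74 times the Lung met column. Rescaling both columns to the same sum would therefore raise every C3Tag log2 ratio by 0.80, while leaving out the 100 highest genes from the sum would shift them by -0.08. Thbs2 remained past 2-fold lower under either, while at the same sum Comp (1.02) joined Thbs3 (1.88) past 2-fold higher.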

How the data were processed

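RNA of matched PT and Lung met was sequenced from libraries that the labels describe as stranded and depleted of ribosomal RNA. Per the labels STAR 2.7.8a, DESeq2 and mm39 were used, whereas the study's methods name Partek Flow with mm10 in one place and mm9 in another, and the deposited files give no coordinates. Both tissues were compared by the authors with DESeq2 in the PyMT-F1 models and with Gene Specific Analysis in the others. The values used are the least-squares means that the authors deposited, treated as a signal of normalized counts per gene and, for the AKR-named table, as other values of unsettled strain. Columns of p-value, FDR, ratio and fold change hold the authors' own comparisons and were not used, and neither was the Myc table, which holds p-value and FDR only. BALB and SEAGN PyMT-F1 use BALB/cJ gene identifiers, the other tables Ensembl mouse identifiers.

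From the means, log2 ratios of Lung met over PT were computed without a pseudocount (Python 3.11.15, numpy 2.4.6, pandas 2.3.3). Genes with an average of both means of at least 10 passed, and at least 2-fold was the limit. Since no sample value was used, no test, SD or n stands beside a mean, and depth per sample is unknown. Loci, exon lengths and overlaps come from GENCODE on GRCm38 by symbol, promoters from RefSeq on GRCm38.p6. Ranks, distances and counts were tested on simulated data. Members and lists were chosen with earlier results of these data known. Genes named are the family, Cd36, Cd47, Tgfb1 and Notch3, in each partner list those past 2-fold one way in every table and those of highest and lowest median, the 5 nearest to Thbs2 and to Thbs1, and defining markers, except 1 gene that is not reported here. Figures were drawn with matplotlib 3.10.9.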

Additional observations from a re-analysis of the deposited data

How the results depend on the processing

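Thbs2 stayed past 2-fold lower in all 5 tables with 1 or 10 added to both means, with the median of all genes subtracted and after each rescaling, and its one value that moved by more than 1.5-fold was C3Tag at the same column sum, -1.37, where the PT column holds 1 very abundant gene. The count of higher members was the least stable value. In C3Tag it was 1 as reported, 0 at 3-fold, 2 at the same column sum and 0 at the same sum without the 100 highest genes. In the AKR-named table it was 1, and 0 at 3-fold, 0 with the median subtracted, 0 at the same sum and 0 without the 100 highest genes, since Thbs3 sits at the limit. At the same column sum in C3Tag, Thbs1 (0.95), Thbs3 (1.88), Thbs4 (-1.25) and Comp (1.02) moved as well. With 10 added to both means, Thbs4 (-2.78) and Comp (-0.71) moved in BALB PyMT-F1. There the difference of Thbs2 from its paralogs, -1.55 over all of them, was -2.25 over those with means of at least 10, -2.50 against Thbs1 alone and -2.25 without Thbs4. Of the 5 genes nearest to Thbs2, 3 remained with means of at least 50, and of those nearest to Thbs1, 1 remained without the AKR-named table. For the ratios of Thbs2, its differences from paralogs, the member counts and the nearest genes, the other 105 comparisons with a changed setting kept within 1.5-fold. Counts that stayed at 0 are among them. For the ratios of the other members, 79 comparisons kept within 1.5-fold and 6 moved. No log2 ratio of a member turned its direction. The settings without the 100 highest genes and without Thbs4 were chosen after seeing the data. No paired analysis was possible because the tables hold no value of a single sample, and for the same reason no replicate could be left out.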
